A study of Mus musculus with 4 samples.

Results

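The genes described here encode the machinery that copies DNA, from the proteins that mark and license origins to the polymerases, clamp, helicase and nucleotide-making enzymes at the fork. They were followed in mouse embryonic stem cells in which the gene of the chromatin remodeler Chd1 had or had not been deleted by Cre. The list named 49 genes, and a gene was a member where a locus in the table of each set bore its symbol alone. That held for 48 of the 11728 genes named once in both tables. Pole2, a subunit of DNA polymerase epsilon, was not among the 48, because set 1 holds it only in a locus merged with Dnaaf2 (32.8 FPKM in control cells and 30.7 in Chd1-null cells). In set 2 it stood alone at 28.1 and 19.8 FPKM.

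All cells carried the Rosa26CreER allele, a tamoxifen-activated Cre expressed from a broadly active locus, together with 1 floxed and 1 null Chd1 allele, so the controls also had a single functional copy. Control cells received ethanol and Chd1-null cells 1 µM tamoxifen for 48 to 72 h, followed by 3 to 5 passages in serum with LIF. Each of 2 sets held a control and a Chd1-null library, 4 libraries in all, and the cells were 2 separately made lines, though no label says which line a set came from. RNA was prepared from matched counts of living cells and received 92 ERCC spike-in transcripts before ribosomal RNA was depleted. Levels are in FPKM, fragments per transcript length and sequencing depth, on the scale as deposited. How far that scale is per cell is not given in the sources used here.

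Before S phase, the origin recognition complex sits on chromosomal origins, and Cdc6 and Cdt1 help it to load the ring-shaped MCM helicase onto DNA, a step called licensing. Geminin (Gmnn) binds Cdt1 and blocks it after S phase has begun, so that each origin fires once. Cdc45 and the GINS complex then join MCM to form the active helicase, and polymerases, the sliding clamp PCNA and its loader RFC follow behind it. Embryonic stem cells divide fast and spend much of their cycle in S phase, and many of these genes are known targets of E2F transcription factors, which recognise short GC-rich letters near the start of transcription.

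Because E2F control is the best-known shared feature of these genes, their promoters were searched for letters that E2F factors recognise (TTCCCGC, or instead TTGGCGC, or instead TTCGCGC, or instead TTGCCGC, on either strand). Promoters came from RefSeq, build GRCm38.p6, as windows of 300 bases from 250 before to 50 after a start, and 41 of the 49 listed genes had 1 or more, 51 windows in all. E2F letters were in 32 of the 51 windows (62.7%), against 9.57% of 32851 mouse promoters and 17.8% of the 9959 windows of genes tested here. At least 1 window of 28 of the 41 genes held them. The CCAAT box, in 26 windows (51%), was found in 37.4% of all promoters and 38.4% of those tested, and the GC box GGGCGG, in 37 (72.5%), in 35.7% of all and 65.6% of those tested. TTTGAA, the letters of the CHR element known from mitotic promoters, occurred in 7 windows (13.7%) against 17.9% of all and 11.4% of those tested. Windows of 27 listed mitosis genes, of which 23 had a promoter entry, showed another makeup, with E2F letters in 8.33% and CHR letters in 66.7% of 24 windows. E2F words can overlap each other and can share letters with a CCAAT box. Matches are letters only, not measured binding, and windows of 1 gene share sequence.

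**Figure D1:**
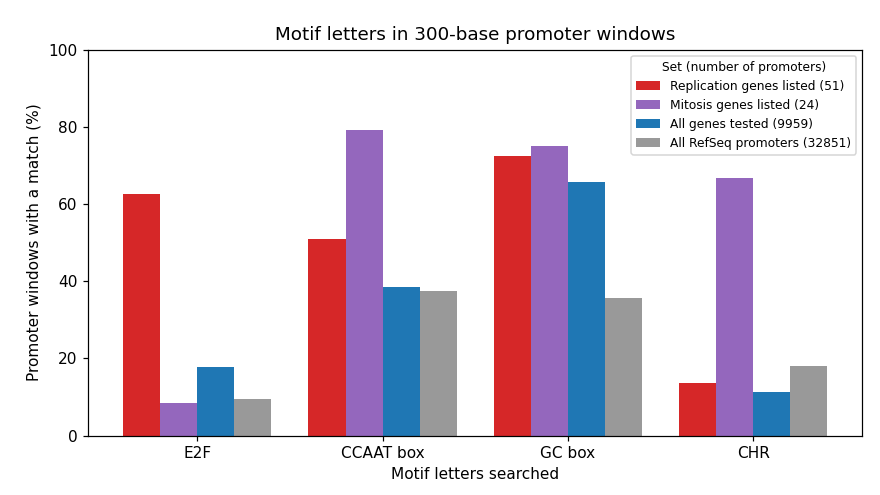
Share of 300-base promoter windows (y axis, percent) that hold the letters of each motif (x axis), for the listed replication genes, the listed mitosis genes, all genes tested and all RefSeq promoters, with the number of windows in the key. The bars of the replication genes are at 62.7% for E2F and 13.7% for CHR letters, and those of the mitosis genes at 8.33% and 66.7%.

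The stretches below show how these letters lie in 4 promoters, 2 of genes that fell in Chd1-null cells (Mcm6 and Cdc6) and 2 of genes that were not called (Mcm5 and Orc1). Each line gives the 180 bases before the RefSeq start on the gene's strand, with E2F and CCAAT letters in capitals on either strand. Mcm6 lies on chr1:128359706-128359885 (minus strand), Mcm5 on chr8:75109329-75109508 (plus), Cdc6 on chr11:98907971-98908150 (plus) and Orc1 on chr4:108579274-108579453 (plus).
Mcm6: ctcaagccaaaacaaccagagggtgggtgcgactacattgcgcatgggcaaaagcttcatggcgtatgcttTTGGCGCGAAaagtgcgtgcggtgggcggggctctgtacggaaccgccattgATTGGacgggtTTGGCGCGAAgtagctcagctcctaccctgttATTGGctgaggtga
Mcm5: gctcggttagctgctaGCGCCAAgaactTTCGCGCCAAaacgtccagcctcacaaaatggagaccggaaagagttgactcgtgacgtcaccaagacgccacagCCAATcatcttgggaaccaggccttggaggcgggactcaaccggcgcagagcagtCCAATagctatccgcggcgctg
Cdc6: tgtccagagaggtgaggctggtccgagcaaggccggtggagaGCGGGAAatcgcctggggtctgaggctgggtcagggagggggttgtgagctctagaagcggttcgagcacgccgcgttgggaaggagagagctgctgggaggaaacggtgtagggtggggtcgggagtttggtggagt
Orc1: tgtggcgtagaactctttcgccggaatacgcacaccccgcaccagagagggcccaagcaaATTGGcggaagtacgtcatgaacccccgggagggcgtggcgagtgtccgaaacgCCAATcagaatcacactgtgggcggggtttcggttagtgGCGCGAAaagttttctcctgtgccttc
In Cdt1, the member with the largest fall, both matches came just after the start, in a stretch of 22 bases at chr8:122568033-122568054 (plus).
Cdt1: GCGGGAActacctttTTGGCGC

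The labels were first checked on the targeted gene and on cell identity. Chd1 fell from 27.6 to 5.71 FPKM in set 1, then from 17.9 to 8.52 in set 2, with a remainder of 20.7% and 47.7% of the control value (limma adjusted p = 1.8e-08). The whole-gene level therefore does not show complete loss in either library labelled Chd1-null, least so in set 2, and the deleted exons were not analysed here. All 12 stem cell markers were measured, and their summed level was 2975 and 3671 FPKM in the controls and 2177 and 2102 in the Chd1-null cells of sets 1 and 2. Of these 12, 10 fell in Chd1-null cells (limma adjusted p under 0.05), where 9.80% of all genes tested did. With each set's median log2 ratio over all genes subtracted, 0 of the 12 fell. Of 10 fibroblast or feeder markers, 7 were named in both tables, with sums of 69.7 and 181 FPKM in controls and 74.8 and 116 in Chd1-null cells, mostly the cytoskeletal gene Vim. Endoderm markers (2 of 6 named, Gata4 and Dab2) and mesoderm markers (2 of 5 named, T and Eomes) each summed to at most 2.76 FPKM in any library. The other markers of these lists are not in the sums. Neural markers (5 named) summed to 48.1 and 33.7 FPKM in controls and 31.1 and 27.1 in Chd1-null cells, and trophectoderm markers (3 of 5 named) to 166 and 21.1 against 85.8 and 15.6. The part of these in the results was not tested. Fewer cells of a type and less RNA per cell cannot be told apart in these bulk samples.

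Replication genes were well expressed. Their median level was 43.9 FPKM (control) and 42.5 (Chd1-null) for set 1 and 57.6 and 43.3 for set 2, against medians of 7.28 to 10.3 FPKM over all 10261 genes tested. Pcna, the ring that tethers polymerases to DNA, was the highest member, at 331 and 339.7 FPKM in controls and 270.3 and 250.5 in Chd1-null cells. Its Chd1-null libraries both lay below both controls, though it did not pass the test (log2 fold change -0.37, SE 0.17, limma adjusted p = 0.14). Next by mean level came Rpa3 (169 FPKM) and Rrm2 (166), and lowest were Gins3 (5.67), E2f1 (7.98) and Mcm8 (16.1). All 48 members had a mean of at least 1 FPKM and entered the test.

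**Figure D2:**
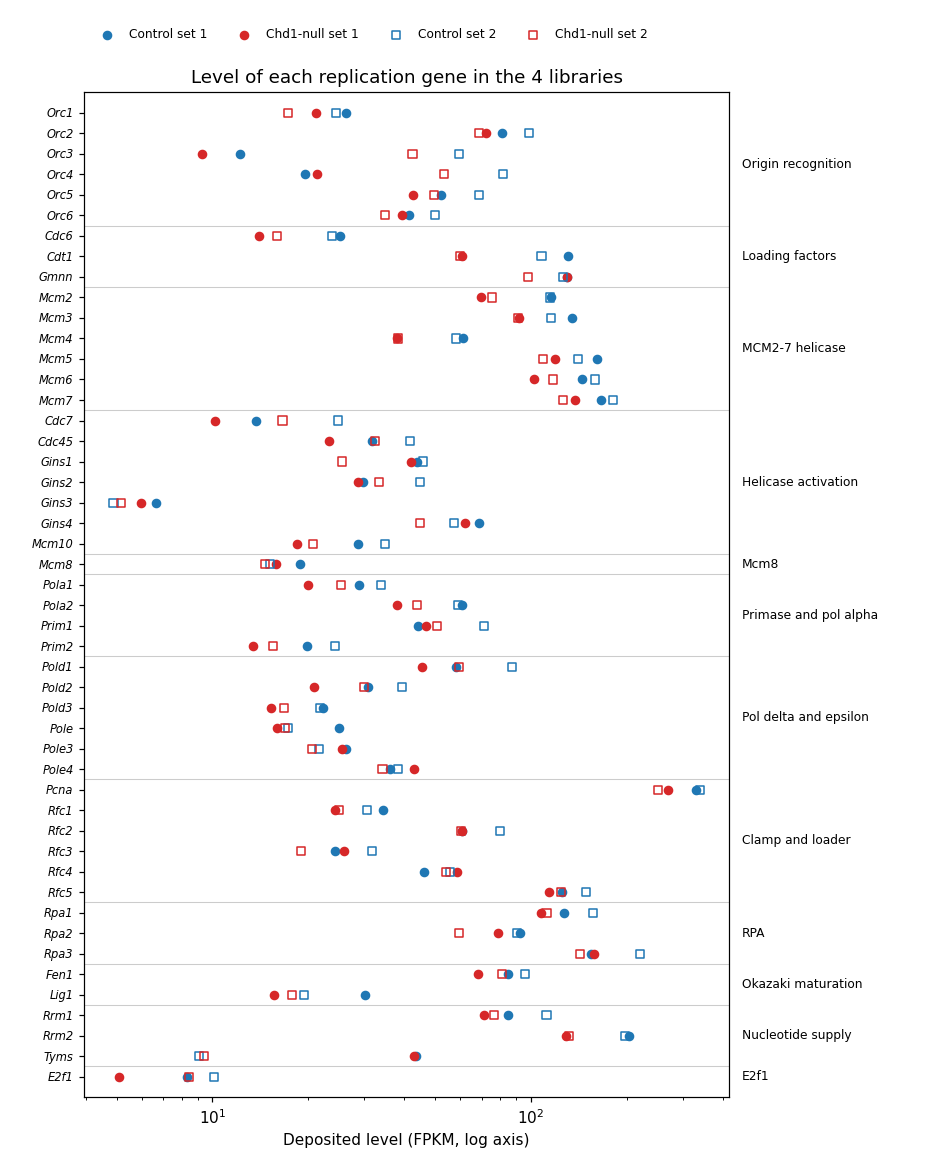
Level of each of the 48 members (rows, grouped by role) in FPKM on a log axis, with filled circles for set 1 and open squares for set 2, blue for control and red for Chd1-null cells. Pcna is at the right, from 250.5 to 339.7 FPKM, and Orc3, Orc4 and Tyms are the rows in which the controls lie more than 2-fold apart.

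The question of the comparison was whether cells in which Chd1 was deleted hold less of the replication transcripts. On the deposited scale 8 of 48 members fell and 0 rose: the licensing factors Cdt1 and Cdc6, the helicase subunits Mcm2, Mcm4 and Mcm6, the initiation factor Mcm10, the polymerase alpha subunit Pola2 and the ribonucleotide reductase subunit Rrm2 (limma, set as block, adjusted p under 0.05). That is 16.7% of the members, where 9.80% of all genes tested fell and 0.0682% rose. Among the 6330 genes within the members' range of mean level, 5.67 to 298 FPKM, the share that fell was 13.8%. Log2 ratios were below 0 in both sets for 38 members (79.2%, against 72.4% of all genes), and both Chd1-null libraries lay below both controls in 29 (60.4%, against 52.6%). At 1.5-fold or more below control in set 1 and also in set 2 were 4 members (8.33%, against 10.8% of all genes): Cdt1, Mcm2, Mcm4 and Mcm10.

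For the members the median of the log2 ratios was -0.30 (set 1) and -0.44 (set 2), beside -0.46 and -0.33 for all genes. Over all genes the log2 ratio correlated with mean log2 level, with Pearson r = 0.39 in set 1 and -0.12 in set 2. The median of the 6330 genes within the members' range of level was -0.36 in set 1 and -0.36 in set 2. The quartiles of the members were -0.55 and -0.06 in set 1 and -0.57 and -0.33 in set 2, so set 1 spread them more widely. The same held for all genes, with quartiles of -0.82 and -0.18 in set 1 and -0.56 and -0.10 in set 2. With each set's median over all genes subtracted, 0 members fell and 0 rose (limma, lowest member adjusted p = 0.48, for Cdt1), where 0.214% of all genes fell and 0.146% rose. At an unadjusted p under 0.05 in either direction there were 3 members in that comparison, of which only 1 was lower, and 6.29% of all genes. Below both set medians were 13 members (27.1%, against 24.6%), and above both were 8 (16.7%, against 24.6%). The sets went different ways: 17 of the 48 members lay below the median of set 1 and 36 below that of set 2, where 5130 of 10261 genes did in each. No test of the list as a whole was made.

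The 8 calls depend on the fit. Without the block, or with one prior variance for all levels, 0 members passed in limma (lowest adjusted p = 0.46 and 0.29). At an unadjusted p under 0.05, 9 and 7 members were lower, against 28 in the blocked fit. Of all 10261 genes, 1043 and 1718 had such a p in either direction, against 2995 in the blocked fit. Restricted to genes with a mean of at least 5 FPKM, or with levels scaled to library totals, Cdt1 alone passed (adjusted p = 0.021 and 0.024). Scaling to totals moved the median of all genes by 0.39 on the log2 scale, brought the members' median to 0.00 and turned the sign of 21 members. Leaving out any 1 of the 4 libraries leaves 1 in a group, and those fits were made without the block. They therefore cannot show whether the 8 calls depend on any 1 library. In them the members' median log2 fold change ran from -0.50 to -0.33, beside -0.46 to -0.34 for all genes. Errors given with fold changes are limma SEs from 2 pairs, which rest on a spread shared by genes of similar level. An exact sign-flip test of 2 pairs cannot go below p = 0.5.

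**Figure D3:**
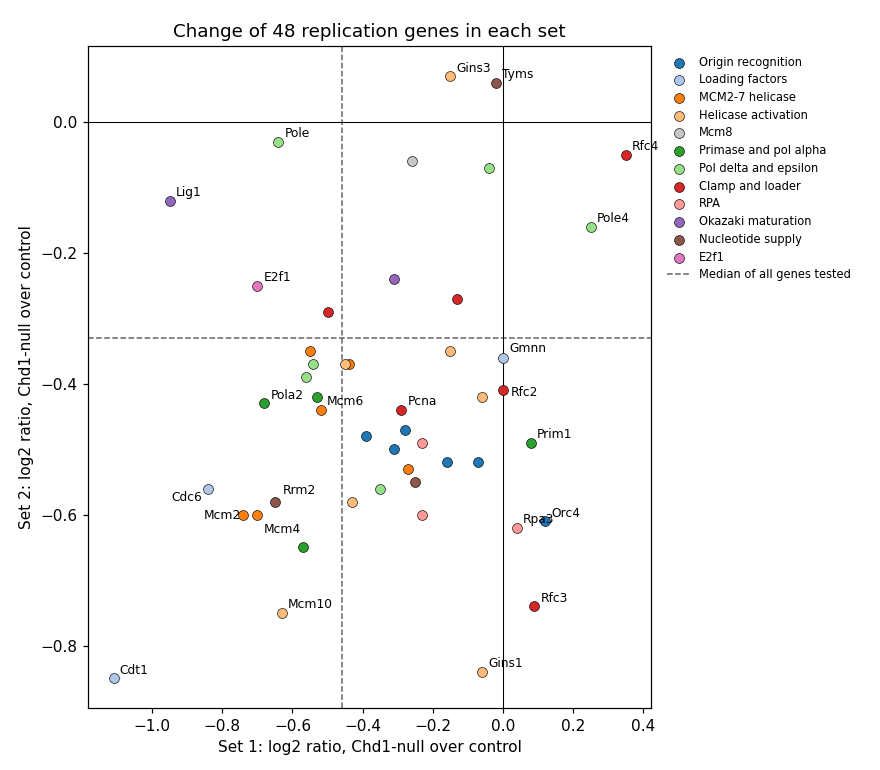
Log2 ratio of Chd1-null over control in set 1 (x axis) and set 2 (y axis) for the 48 members, coloured by role, with dashed lines at the medians of all genes tested (-0.46 and -0.33). Cdt1 is at the lower left with -1.11 and -0.85, and Rfc4 at the right with 0.35 and -0.05.

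In the loading factor group, which also holds the Cdt1 inhibitor geminin, Cdt1 and Cdc6 fell and geminin was not called. Cdt1, which brings MCM to the origin, stood at 131 FPKM in the control and 60.9 in the Chd1-null library of set 1. For set 2 the pair was 108 and 60.0. Both Chd1-null values were thus near 60, below both controls, and the ratios were 0.464 and 0.555. Cdt1 fell by 0.98 on the log2 scale (SE 0.17, limma adjusted p = 5.3e-06), the lowest adjusted p of the members. Cdc6, the ATPase that works with Cdt1, went from 25.1 to 14.0 FPKM in set 1, then from 23.7 to 16.0 in set 2, and fell by 0.70 (SE 0.22, adjusted p = 0.023). Gmnn was level in set 1, at 129.5 and 129.6 FPKM, and went from 126 to 97.8 in set 2 (log2 fold change -0.18, SE 0.17, adjusted p = 0.44). Whether Cdt1 and Gmnn differed from each other was not tested.

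All 6 MCM2-7 subunits, which form the helicase ring in equal numbers, were below their controls in set 1 and in set 2, with no overlap between the groups, although Mcm7 turned sign with each library scaled to its total. Such separation was common, at 52.6% of all genes tested. Mcm2 went from 116 to 69.8 FPKM in set 1, then from 115 to 75.4 in set 2, and fell by 0.67 (SE 0.17, limma adjusted p = 0.0044). Mcm4 went from 61.4 to 37.9 and from 58.1 to 38.2, and fell by 0.65 (SE 0.18, adjusted p = 0.011). Mcm4 was also the lowest of the ring in level, with a mean of 59.8 FPKM in controls, where the other subunits had 116 to 174. Mcm6 went from 145 to 102 and from 159 to 117, and fell by 0.48 with an adjusted p of 0.047 (limma). With a pseudocount of 1 FPKM it was the member no longer called.

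The remaining 3 subunits were not called. Mcm3 stood at 135 and 92.1 FPKM in set 1 and at 116 and 91.4 in set 2 (log2 fold change -0.45, limma adjusted p = 0.065). For Mcm5 the values were 161 and 119 in set 1 and 141 and 109 in set 2 (-0.40, adjusted p = 0.097), and for Mcm7 166 and 138, then 181 and 126 (-0.40, adjusted p = 0.10). The 6 fold changes ran from -0.67 to -0.40 with SEs of 0.17 or 0.18, so neighbours in that order did not differ beyond these errors. Whether the called subunits differed from those not called was not tested. The ring's medians of -0.53 and -0.48 were below those of all genes in both sets. Below both medians were 4 of its 6 genes, where 24.6% of all genes were. With each set's median subtracted, the 6 fold changes ran from -0.28 to 0.00 and 0 of them passed. Mcm8, a related helicase of recombination and not of the ring, stood at 18.9 and 15.8 FPKM in set 1 and 15.2 and 14.6 in set 2 (-0.16, adjusted p = 0.61).

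No subunit of the origin recognition complex, which marks the sites where MCM is loaded, was called. The 6 ratios in set 2 were tightly grouped, from -0.61 to -0.47, all below that set's median of -0.33. In set 1 they ran from -0.39 to 0.12, all above that set's median of -0.46, and the direction of Orc2, Orc4, Orc5 and Orc6 turned under scaling to library totals. Orc3 had the largest mean decrease, from 12.2 to 9.27 FPKM in set 1, then from 59.3 to 42.5 in set 2 (log2 fold change -0.43, SE 0.21, limma adjusted p = 0.15). Orc4 went from 19.5 to 21.3 in set 1, then from 81.6 to 53.4 in set 2. In both genes the sets differed more than the genotypes did: control 2 was 4.87 times control 1 for Orc3 and 4.18 times for Orc4. Orc1, Orc2, Orc5 and Orc6 had control levels of 24.5 to 98.9 FPKM and adjusted p from 0.15 to 0.27.

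Of the 7 genes that turn the loaded ring into an active helicase, 1 fell. Mcm10, needed to start unwinding, went from 28.6 to 18.5 FPKM in set 1, then from 34.9 to 20.7 in set 2. Both Chd1-null libraries lay below both controls, and it fell by 0.69 (SE 0.20, limma adjusted p = 0.017). Gins3 was at the other end of this group, at 6.66 and 5.97 FPKM in set 1 and 4.89 and 5.16 in set 2 (log2 fold change -0.04, SE 0.33). Gins1, another GINS subunit, was near level in set 1 (43.8 and 42.1) and lower in set 2 (45.7 and 25.5), with log2 ratios of -0.06 and -0.84. Cdc7, the kinase that triggers firing, had ratios of 0.740 and 0.667, and Cdc45, a part of the active helicase, 0.732 and 0.775, and neither was called (adjusted p = 0.13 and 0.15). Gins2 and Gins4 had ratios from 0.744 to 0.962.

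Polymerase alpha with its primase starts each new strand, and here Pola2 fell while the other 3 genes were not called. Pola2, the regulatory subunit, went from 60.8 to 37.9 FPKM in set 1, then from 59.2 to 44.0 in set 2, and fell by 0.55 (SE 0.18, limma adjusted p = 0.032). The catalytic subunit Pola1 had ratios of 0.693 and 0.747 (adjusted p = 0.11). The primase subunits went apart in set 1. Prim2 stood at 19.8 and 13.4 FPKM in set 1 and at 24.3 and 15.5 in set 2, and narrowly missed the threshold (log2 fold change -0.61, SE 0.22, adjusted p = 0.057). Prim1, the catalytic primase subunit, stood at 44.1 and 46.7 in set 1 and at 71.4 and 50.7 in set 2 (-0.20, adjusted p = 0.42).

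None of the 6 members that are subunits of the leading and lagging strand polymerases, epsilon and delta, was called. The delta subunits among them, Pold1, Pold2 and Pold3, had similar fold changes, from -0.48 to -0.45, with ratios of 0.677 to 0.783 over the sets. Pold2, the largest of these decreases, went from 30.8 to 20.8 FPKM in set 1, then from 39.4 to 30.0 in set 2 (limma adjusted p = 0.096). Pold4, a delta subunit listed apart from the members, was low and differed between the sets. It stood at 2.08 and 1.87 FPKM in set 1 and at 2.92 and 0.554 in set 2. Pold4 was not called either (log2 fold change -1.18, SE 0.59, limma adjusted p = 0.17). The catalytic epsilon subunit Pole was lower in set 1 (24.9 and 15.9 FPKM) and near level in set 2 (17.3 and 16.9). Its histone-fold subunits Pole3 and Pole4 had the smallest changes of the group. Pole4 stood at 36.2 and 43.0 in set 1 and at 38.2 and 34.2 in set 2 (0.05, SE 0.19), and Pole3 had ratios of 0.974 and 0.950.

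The clamp loader RFC opens PCNA and places it on primed DNA, and its subunits had the smallest median change in set 1 together with Pcna, -0.06, against -0.35 in set 2. Rfc1, the large subunit, went from 34.4 to 24.3 FPKM in set 1, then from 30.6 to 25.0 in set 2 (log2 fold change -0.39, limma adjusted p = 0.17). Rfc4 was higher in set 1, 46.1 against 58.8 FPKM, and level in set 2, 55.9 against 54.1, with a fold change of 0.15 (SE 0.18), the highest of the 48 members. Rfc2 was level in set 1 (60.8 and 61.0) and lower in set 2 (80.1 and 60.4). Rfc3 showed the widest gap between sets in this complex, with 24.3 and 25.9 in set 1 and 31.7 and 19.0 in set 2. Rfc5 had ratios of 0.913 and 0.831. Library-total scaling turned the sign of Pcna, Rfc1, Rfc2, Rfc3 and Rfc5, and 0 of the 6 genes passed in the blocked fit.

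Replication protein A coats single-stranded DNA behind the helicase, and its 3 subunits differed little in set 2, with ratios of 0.714, 0.659 and 0.649 for Rpa1, Rpa2 and Rpa3. In set 1 Rpa1 and Rpa2 both had 0.853 and Rpa3 1.03. Rpa2 went from 92.7 to 79.1 FPKM and from 90.4 to 59.6 (log2 fold change -0.42, limma adjusted p = 0.097), and Rpa3 from 154 to 158 and from 220.1 to 143 (-0.29, adjusted p = 0.23). Rpa1 and Rpa3 turned sign with library totals. Fen1 and Lig1 trim and seal the short Okazaki fragments of the lagging strand. Lig1 was much lower in set 1 (30.2 and 15.6 FPKM) and little lower in set 2 (19.4 and 17.8), with log2 ratios of -0.95 and -0.12. Fen1 went from 84.5 to 68.4 and from 95.9 to 81.3, and neither gene was called (adjusted p = 0.27 for Fen1 and 0.084 for Lig1).

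Nucleotide supply was uneven. Rrm2, the S-phase subunit of ribonucleotide reductase, went from 203 to 129 FPKM in set 1, then from 198 to 132 in set 2. The ratios of 0.637 and 0.669 were close, the groups did not overlap, and Rrm2 fell by 0.62 (SE 0.17, limma adjusted p = 0.0090). Its partner Rrm1, the large subunit, went from 85.0 to 71.4 and from 112 to 76.7 and was not called (log2 fold change -0.40, SE 0.17, adjusted p = 0.11). Tyms, which makes thymidylate, was near level within each set, with 43.7 and 43.1 FPKM in set 1 and 9.05 and 9.41 in set 2 (0.02, SE 0.22, adjusted p = 0.96). Its control in set 2 was 0.207 of that in set 1. The controls of the other genes of the list, apart from Orc3 and Orc4, were within 2-fold of each other (45 of 48).

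E2f1, the transcription factor that drives many of these genes, was itself low, at 8.32 and 5.08 FPKM in set 1 and 10.1 and 8.44 in set 2. It was lower in both sets and not called (log2 fold change -0.48, SE 0.29, limma adjusted p = 0.25), and its level in Chd1-null 2 was above that in control 1. E2F letters were in 4 of the 7 promoter windows of members that fell (57.1%) and in 28 of the 44 of members not called (63.6%). Cdt1, Cdc6, Mcm6 and Rrm2 were the 4 with a match, whereas Mcm2, Mcm10 and Pola2 had none in the window.

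**Figure D4:**
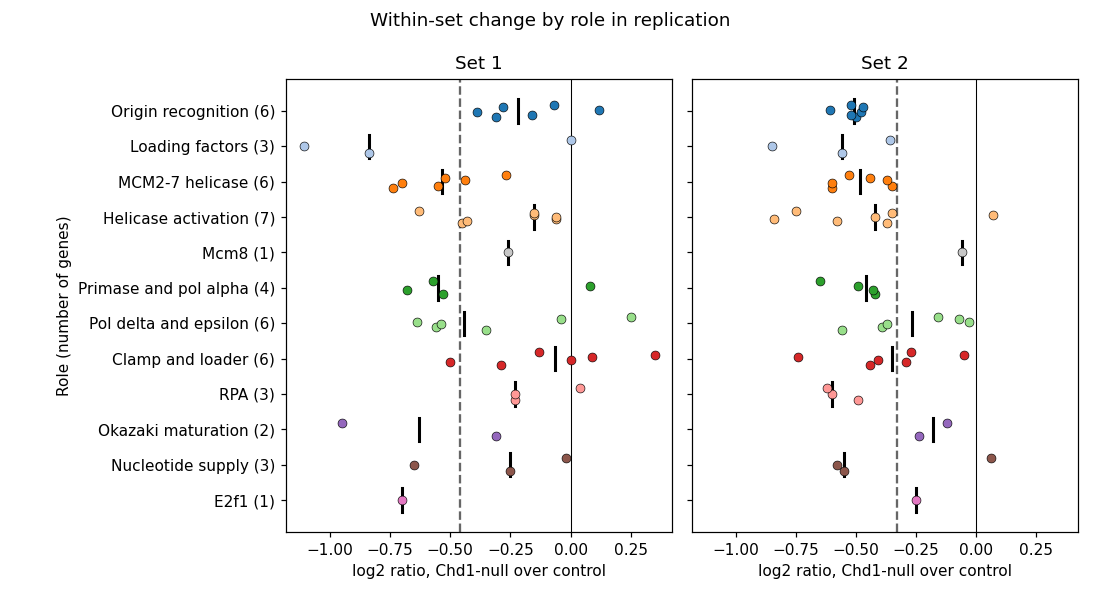
Log2 ratio of Chd1-null over control for each member (points) by role (rows) in set 1 and set 2, with a black bar at the median of each role and a dashed line at the median of all genes tested. Origin recognition genes lie right of the dashed line in set 1 and left of it in set 2, and MCM2-7 medians are at -0.53 and -0.48.

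Order of change by role differed between the sets. In set 1 the lowest role medians among groups of at least 3 genes were those of the loading factors (-0.84), polymerase alpha and primase (-0.55) and MCM2-7 (-0.53), and the highest was that of the clamp and its loader (-0.06). Set 2 had its lowest medians in RPA (-0.60), the loading factors (-0.56) and nucleotide supply (-0.55), and its highest in polymerases delta and epsilon (-0.26). Across the 48 members, which are not replicates and share the 4 libraries, the correlation of the log2 ratios between sets was 0.20 by Pearson and 0.13 by Spearman. Over all 10261 genes tested that correlation was 0.03 by Pearson and 0.00 by Spearman, so the sets shared little of the gene-to-gene differences in ratio.

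Transcript length moved with the ratios of set 1. Over the 48 members, log2 length of the longest coding transcript (GENCODE M21) and log2 ratio had Pearson r = -0.42 in set 1 and 0.12 in set 2, and over 9628 genes with a length -0.36 and 0.18. At a limit of 2000 bases, chosen after the values were seen, the 14 shorter members had a median log2 ratio of -0.05 in set 1 and -0.47 in set 2, and the 34 longer ones -0.43 and -0.44. All genes showed the same order in set 1, with medians of -0.23 below the limit and -0.53 above it, and the opposite order in set 2, with -0.43 and -0.30. All 8 members that fell were longer than the limit, from 2189 to 4867 bases, and the part of length in the calls was not tested. Short transcripts near level in set 1 included Rpa3, Gins1, Gmnn, Rfc3 and Prim1.

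**Figure D5:**
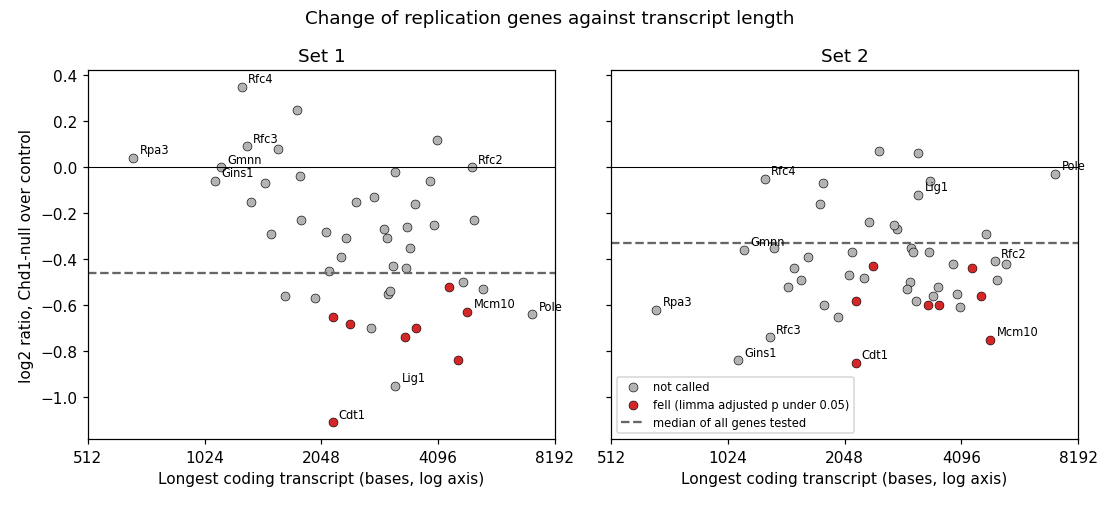
Log2 ratio of Chd1-null over control (y axis) against the length of the longest coding transcript in bases (x axis, log scale) for the 48 members in set 1 and set 2, with the 8 members that fell in red and a dashed line at the median of all genes tested. In set 1 the shortest transcripts lie near 0, while in set 2 Rpa3, Gins1 and Rfc3 lie below the dashed line.

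Other genes of replication, listed apart from the members, fell in 5 of 82 cases and rose in 0 (limma, adjusted over all genes), with a median log2 ratio of -0.34 in set 1 and -0.32 in set 2. Over all genes tested 9.80% fell, a larger share than in these lists together. In licensing and firing 1 of 19 fell: Dtl, which directs Cdt1 to destruction in S phase, from 22.7 to 11.6 FPKM in set 1, then from 15.4 to 11.0 in set 2 (by 0.73, adjusted p = 0.031). Of 30 further fork genes 2 fell, Top1, which relaxes DNA ahead of the fork (by 0.60, adjusted p = 0.037), and Uhrf1, which guides methylation of new DNA (by 0.48, adjusted p = 0.049). Of 18 nucleotide genes 1 fell, Cad, the first enzyme of pyrimidine synthesis (by 0.58, adjusted p = 0.025), with log2 ratios of -0.99 in set 1 and -0.17 in set 2. Among 15 E2F and retinoblastoma family genes Mybl2, a cell cycle transcription factor, fell from 120.1 to 61.8 and from 134 to 70.0 FPKM (by 0.95, SE 0.17, adjusted p = 1.1e-05). Its log2 ratios were -0.96 and -0.94, nearly equal in the sets.

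Mitosis genes, the nearest other group in the cell cycle, gave 5 falls among 27 genes (all genes tested 9.80%), with median log2 ratios of -0.32 and -0.40 in the sets, next to -0.30 and -0.44 for the replication genes. Aurkb (by 0.72, limma adjusted p = 0.0062), Incenp (by 0.74, adjusted p = 0.0097) and Plk1 (by 0.63, adjusted p = 0.010), kinases of chromosome segregation and the partner of one, had the lowest adjusted p. The difference between the lists was not tested.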

How the data were processed

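RNA-seq of 4 libraries was used, a control and a Chd1-null library per set, with 2 sets. The deposited level columns were taken as FPKM, made by the authors, since the submitters' processing notes name TopHat2 2.0.10, Cufflinks 2.2.0, Cuffdiff and build mm9, and the values are not whole. The headers do not write the unit, and the use of the spike-ins in scaling is not given in the sources used here. A deposited ratio column equalled the quotient of the levels to within 4.97e-06 and was not used further. Read depth is unknown, and 100-base paired reads came from 2 lanes, per the labels' protocols. The lowest deposited value was 0.100.

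Genes named once in both tables were joined by symbol, and 10261 with a mean of at least 1 FPKM were tested on log2(FPKM + 0.1), a scale that understates changes of low genes. The test was limma 3.58.1 in R 4.3.3 with a variance trend, set as block, two-sided, Benjamini-Hochberg over all genes at 0.05. Set was the block because the labels' protocols name 2 lines given both treatments. Deviations of same-set libraries correlated (r = 0.483 over genes). The residual degrees of freedom were 1 and the prior ones Inf. The relative comparison subtracted each set's median log2 ratio. The members and lists were chosen with earlier results of these data known. Named with values were members called, lowest and highest in each role, opposite in sign or extreme in level, the MCM, nucleotide and licensing genes, and up to 3 called genes per other list. Motifs were searched in RefSeq windows of GRCm38.p6, with no coordinates shared with mm9. The 2 libraries of a set came from cells treated apart, but no label says which line a set came from. The p-values rest only on variation among these samples, pooled over genes of similar level. With prior degrees of freedom of Inf, disagreement of the 2 sets on a single gene did not widen its SE. Lig1, with log2 ratios of -0.95 and -0.12, had the same SE (0.22) as Cdc6, with -0.84 and -0.56.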

Additional observations from a re-analysis of the deposited data

Results flagged for a closer look

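In 10 members the log2 ratio had opposite signs in the 2 sets, and the difference between the sets was not tested. The difference, set 1 minus set 2, was 0.82 for Rfc3, 0.74 for Orc4, 0.66 for Rpa3, 0.57 for Prim1, 0.41 for Pole4 and for Rfc2, 0.40 for Rfc4 and 0.37 for Gmnn. It was -0.23 for Gins3 and -0.08 for Tyms. In Gmnn and Rfc2 the set 1 ratio rounds to 0.00.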

How the results depend on the processing

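Against 8 calls, a pseudocount of 1 FPKM gave 7, no filter on low values 8 and removal of each set's level trend 6. A minimum mean of 5 FPKM gave 1, scaling to library totals 1, one common prior variance 0 and the fit without the replicate block 0. The cause was not tested. With either set alone, where no test was made, 10 of 48 members were at least 1.5-fold lower. The share of all genes beyond that limit in 1 set was not counted. The lower quartile of the log2 ratios of all genes was -0.82 in set 1 and -0.56 in set 2, beside -0.55 and -0.57 for the members. Fits with a library left out had no block, which by itself left 0 calls, so they cannot show whether the calls depend on 1 library. In the relative comparison 0 members passed under each of 6 alternatives, the unpaired fit included. The median of the members was 0.00 with totals and ran from -0.44 to -0.30 with 1 set left out.

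Scaling to totals turned the sign of 21 members, none called: Orc2 to 0.06, Orc4 0.15, Orc5 0.02, Orc6 0.11, Gmnn 0.22, Mcm7 0.00, Gins2 0.16, Gins3 0.35, Gins4 0.15, Mcm8 0.24, Prim1 0.19, Pole 0.06, Pole3 0.34, Pcna 0.03, Rfc1 0.00, Rfc2 0.20, Rfc3 0.07, Rfc5 0.20, Rpa1 0.04, Rpa3 0.11 and Fen1 0.13. Level-trend removal turned Pole4 to -0.02 and Tyms to -0.07. With a library or set left out, Orc3 ran from -1.57 to 0.70, Orc4 from -1.27 to 0.79, Tyms from -1.11 to 1.15, Gmnn from -0.38 to 0.02, Gins2 from -0.54 to 0.06, Gins3 from -0.26 to 0.18, Prim1 from -0.55 to 0.14, Pole3 from -0.21 to 0.10 and Pole4 from -0.16 to 0.25. With depth unknown, no counting error could be given.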
